A study of Homo sapiens with 6 samples.

Results

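FGF21, GDF15, ADM2, VEGFA, STC2 and ANGPTL4 encode secreted proteins that cells make under integrated or mitochondrial stress. These 6 genes were chosen by name, with earlier results of these data known. They were matched to their Ensembl identifiers, out of 58735 genes in the deposited table. C4-2B MDVR is an established human prostate cancer line, a derivative of C4-2B that is resistant to enzalutamide. Every group was grown from this 1 line and treated for 2 days, with 1 mRNA-seq library per group. The groups were 20 µM PTUPB plus enzalutamide, 10 µM PTUPB plus enzalutamide, enzalutamide alone at 20 µM, 20 µM PTUPB alone, 10 µM PTUPB alone, and a DMSO control. Enzalutamide blocks the androgen receptor, and PTUPB inhibits both cyclooxygenase-2 and soluble epoxide hydrolase. The enzalutamide dose is labelled for the single agent only, and an equal dose was assumed in the combinations.

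The integrated stress response slows translation through phosphorylation of eIF2 and favours translation of the transcription factor ATF4, whose partners include CHOP (gene DDIT3) and C/EBP proteins. FGF21 and GDF15 are the best known hormones of this response: they signal from stressed cells to adipose tissue, liver and brain. VEGFA and ANGPTL4 are also classic targets of hypoxia-inducible factors, and ANGPTL4 of PPAR receptors, and the regulators of the set were not tested.

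Depth, recovered as whole fragments from the deposited values, ran from 20156523 to 29450436 fragments per library. Values are FPKM, fragments scaled by gene length and a divisor per library, so levels of different genes are on a common per-length scale. Of the 12960 genes with a mean of at least 1 FPKM, which were the genes tested, 5 are hormone genes of the set. ANGPTL4 averaged 0.131 FPKM and was not tested. All 8 luminal prostate markers were detected, but their summed level was 298 and 280 FPKM at 20 µM PTUPB with and without enzalutamide, against 624 and 816 FPKM at 0 µM. Defining markers of blood, endothelium and adipocytes stayed under 1 FPKM in every library. Of the fibroblast markers, COL1A1 alone passed 1 FPKM, at 2.28 to 6.47. Of the hepatocyte markers, SERPINA1 reached 4.53 FPKM at 20 µM PTUPB without enzalutamide and APOA1 reached 1.02 at 10 µM PTUPB without enzalutamide, while ALB stayed at or under 0.0944. The part of these marker differences in the results below was not tested. In bulk RNA, fewer cells of a kind and less RNA per cell cannot be told apart.

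With 1 library per group, no single pair of libraries could be checked in a replicate. Pair differences are given with a 95% interval (exact binomial) that covers counting error only. The tests are from limma, fitted to all 6 libraries with PTUPB as 3 levels plus enzalutamide, two-sided and adjusted over the 12960 genes. Each p-value is set by how far the 6 libraries depart from an additive pattern; the spread between cultures is unknown. Effects are on the log2(FPKM + 1) scale, which understates changes of low genes.

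FGF21 encodes an endocrine fibroblast growth factor that acts through FGF receptors with the co-receptor beta-klotho. The gene (ENSG00000105550) lies on the plus strand of GRCh38 chromosome 19, from 48755559 to 48758333, in the GENCODE 29 annotation. In its RefSeq promoter window, 250 bases before to 50 bases after the start site, 1 copy of the ATF4-C/EBP composite element TGATGNAA was found on the minus strand, beginning 54 bases before the start. The element was the only match among the 7 motifs searched there, and 3.62% of the 35116 promoters in the table hold it on either strand. GDF15, whose level also rose, and STC2, whose change did not pass the test, are shown with it for comparison. The lines give the 250 bases before the start site, 5′ to 3′ on the gene's strand (GRCh38.p14), with motif matches in capitals.
FGF21, chr19:48755274-48755523, plus strand: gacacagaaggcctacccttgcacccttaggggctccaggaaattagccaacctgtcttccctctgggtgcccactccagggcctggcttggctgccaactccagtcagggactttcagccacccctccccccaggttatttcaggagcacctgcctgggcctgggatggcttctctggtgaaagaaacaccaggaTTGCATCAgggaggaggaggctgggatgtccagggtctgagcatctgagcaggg
GDF15, chr19:18385908-18386157, plus strand: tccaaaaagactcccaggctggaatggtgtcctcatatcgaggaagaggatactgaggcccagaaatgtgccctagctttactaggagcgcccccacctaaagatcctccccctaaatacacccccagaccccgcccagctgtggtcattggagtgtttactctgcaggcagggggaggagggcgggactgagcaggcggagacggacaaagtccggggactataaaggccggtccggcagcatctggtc
STC2, chr5:173328415-173328664, minus strand: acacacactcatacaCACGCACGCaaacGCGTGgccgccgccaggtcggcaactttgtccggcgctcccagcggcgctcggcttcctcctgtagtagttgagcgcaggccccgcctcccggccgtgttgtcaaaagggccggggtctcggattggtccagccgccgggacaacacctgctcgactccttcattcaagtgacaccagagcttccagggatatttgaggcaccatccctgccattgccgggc

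The capitals in FGF21 mark the composite element on its minus strand. Those in STC2 mark 3 copies of the hypoxia response core GCGTG, of which 2 are on the minus strand and share 1 base. GCGTG was also found in ADM2, and its other form ACGTG in ANGPTL4; 36.5% and 21.4% of all promoters hold GCGTG and ACGTG. None of the 7 motifs was found in the GDF15 window. The GDF15, STC2 and ANGPTL4 windows lie inside the GENCODE 29 bounds of these genes, so sequence before the outer bound was not searched. The cyclic AMP element TGACGTCA (1.85% of promoters), the endoplasmic reticulum stress element (0.0769%), the unfolded protein element TGACGTGG (0.729%) and the direct-repeat PPAR element (0.0228%) had no match in the 5 windows. Sequences matched by symbol for 5 of the 6 genes; VEGFA was not matched. A match is a description of letters, not of binding.

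FGF21 had the largest additive 20 µM PTUPB effect of the set, though with enzalutamide its log2 difference of 1.74 between 20 and 0 µM was below the 1.79 of GDF15. It was the lowest of the 5 tested genes at 0 and 10 µM. With enzalutamide it stood at 7.35, 9.81 and 27.0 FPKM at 0, 10 and 20 µM PTUPB, against 1.48, 4.01 and 21.0 FPKM without enzalutamide. The order with dose was the same in both arms, and the library with enzalutamide was the higher at each dose. The control value rests on 58 fragments, and the other 5 libraries held 156 to 651. At 20 µM PTUPB alone the level was 14.2-fold that of control (95% interval 10.8 to 18.9), and at 10 µM PTUPB alone it was 2.72-fold (2.00 to 3.74). In the additive model the 20 µM effect was 2.45 (SE 0.33, adjusted p = 0.0065 by limma), with the level higher in both pairs. Against 10 µM the 20 µM dose gave a difference of 1.75 (SE 0.33, adjusted p = 0.016).

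GDF15 encodes a divergent member of the TGF-beta family that acts on the brainstem receptor GFRAL and curbs appetite. The gene (ENSG00000130513, chromosome 19, 18374731 to 18389176, plus strand) overlaps the microRNA gene MIR3189 on the same strand. With enzalutamide GDF15 stood at 19.8, 38.1 and 71.1 FPKM at 0, 10 and 20 µM PTUPB, against 26.8, 22.8 and 58.5 FPKM without enzalutamide. Both 20 µM libraries were above all 4 others. At 10 µM the 2 arms differed in direction: 10 µM PTUPB with enzalutamide was 1.92-fold enzalutamide alone (95% interval 1.79 to 2.07), and 10 µM PTUPB without it was 0.848-fold control (0.789 to 0.911). The additive 20 µM effect was 1.44 (SE 0.30, adjusted p = 0.018 by limma), higher in both pairs, and 20 µM exceeded 10 µM by 1.10 (SE 0.30, adjusted p = 0.038).

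VEGFA encodes vascular endothelial growth factor A, the main growth signal for blood vessels. The gene (ENSG00000112715, chromosome 6, 43770184 to 43786487, plus strand) overlaps an antisense gene, and whether counting used strand is not given, so its values are uncertain to that extent. With enzalutamide VEGFA stood at 22.5, 33.6 and 55.4 FPKM at 0, 10 and 20 µM PTUPB, against 24.9, 22.1 and 45.5 FPKM without enzalutamide. The layout of the 6 values resembled that of GDF15, with 20 µM above all others and opposite directions at 10 µM in the 2 arms. The additive 20 µM effect was 1.05 (SE 0.23, adjusted p = 0.021 by limma), higher in both pairs, and 20 µM exceeded 10 µM by 0.86 (SE 0.23, adjusted p = 0.037). VEGFA was read from at least 9175 fragments per library, the most of the set.

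ADM2 encodes adrenomedullin 2, also called intermedin, a vasodilator peptide of the calcitonin family. The gene (ENSG00000128165) lies on chromosome 22 from 50481556 to 50486440, plus strand. With enzalutamide it stood at 21.9, 32.2 and 27.7 FPKM at 0, 10 and 20 µM PTUPB, against 17.4, 25.3 and 30.3 FPKM without enzalutamide. Each PTUPB library was above the 0 µM library of its arm, but the higher dose was above the lower in the arm without enzalutamide only. The effects at 10 µM (0.53, SE 0.20, adjusted p = 0.98) and 20 µM (0.55, SE 0.20, adjusted p = 0.086) did not pass, and neither did the difference between the doses (0.02, SE 0.20, adjusted p = 0.95 by limma).

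STC2 encodes stanniocalcin 2, a glycoprotein hormone that inhibits the protease pappalysin and is induced by reticulum stress. The gene (ENSG00000113739) lies on chromosome 5 from 173314713 to 173329503, minus strand. With enzalutamide STC2 stood at 30.8, 41.7 and 15.9 FPKM at 0, 10 and 20 µM PTUPB, against 18.3, 28.6 and 23.2 FPKM without enzalutamide. In each arm the 10 µM library was the highest. At 20 µM with enzalutamide the level was the lowest of the 6, at 0.516-fold enzalutamide alone (95% interval 0.489 to 0.544), whereas 20 µM without enzalutamide was 1.27-fold control (1.21 to 1.33). The additive effects did not pass: 0.52 at 10 µM (SE 0.33, adjusted p = 0.98), -0.29 at 20 µM (SE 0.33, adjusted p = 0.52) and -0.81 for 20 against 10 µM (SE 0.33, adjusted p = 0.11 by limma).

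ANGPTL4 encodes a secreted inhibitor of lipoprotein lipase. The gene (ENSG00000167772, chromosome 19, 8363289 to 8374373, plus strand) overlaps the antisense gene RAB11B-AS1. It held 16, 6 and 7 fragments with enzalutamide at 0, 10 and 20 µM PTUPB, or 0.228, 0.0915 and 0.154 FPKM, against 8, 10 and 4 fragments without enzalutamide, or 0.108, 0.136 and 0.0682 FPKM. No difference between the libraries of a pair was detectable at this depth: 20 µM PTUPB was 0.633-fold control, with a 95% interval of 0.139 to 2.36. Enzalutamide alone was 2.12-fold control, with an interval of 0.855 to 5.71.

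**Figure D1:**
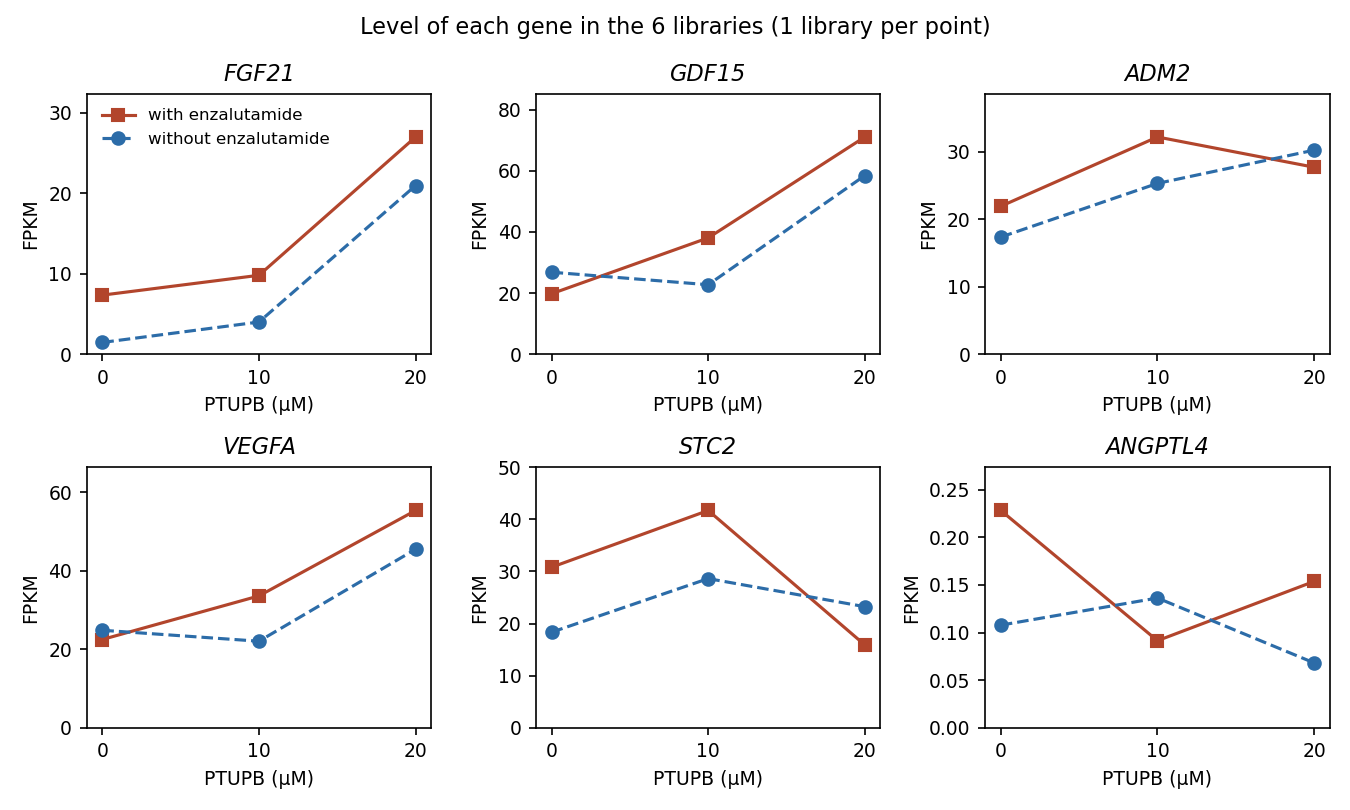
FPKM of each of the 6 genes (vertical axes, each from 0 with its own range) against PTUPB dose in µM, with enzalutamide (red squares) and without it (blue circles), 1 library per point. FGF21, GDF15 and VEGFA are highest at 20 µM in both arms, STC2 is highest at 10 µM in both arms, and ANGPTL4 stays at or under 0.228 FPKM.

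For 20 µM PTUPB, limma thus called 3 of the 5 tested hormone genes higher (FGF21, GDF15 and VEGFA) and 0 lower, where 15.9% of all 12960 genes were called higher and 18.2% lower. For 20 against 10 µM the same 3 genes were higher and 0 lower, with 16.5% and 16.9% of all genes called in the 2 directions. The 2 contrasts share the 20 µM libraries. For 10 µM PTUPB limma called 0 of the 5 and 0% of all genes. At an unadjusted p under 0.05 there were 480 genes, ADM2 among them, and limma-voom called 0 after adjustment as well. FGF21 kept its 20 µM call with any 1 library left out. GDF15 did not pass without the enzalutamide library (adjusted p = 0.16) or without the 20 µM combination (0.062), and VEGFA did not pass without either of these (0.22 and 0.055) or without control (0.066). With all 6 libraries 2064 of all genes were called higher at 20 µM and 2362 lower. Without the enzalutamide library these counts were 115 and 209. They were 366 and 616 without control, and 1922 and 2336 without the 20 µM combination. With no filter on low values none of the 3 passed at 20 µM (adjusted p 0.053 to 0.086). That fit called 544 genes higher and 657 lower of 31321. For 20 against 10 µM FGF21 did not pass without the 10 µM library (0.073) or the 10 µM combination (0.065); GDF15 passed without control or the enzalutamide library only (0.041 each), and VEGFA passed in none of these 6 fits. For 20 against 10 µM all genes called higher and lower were 351 and 487 without the 10 µM library, and 430 and 709 without the 10 µM combination. Without the library of 20 µM PTUPB alone, STC2 was called lower at 20 µM (-0.86, adjusted p = 0.022 by limma) and for 20 against 10 µM (-1.38, adjusted p = 0.0099). That fit called more of all genes: 2685 higher and 2718 lower at 20 µM, and 2910 and 2681 for 20 against 10 µM. Without the 20 µM combination, ADM2 was called higher at 20 µM (0.77, adjusted p = 0.030 by limma).

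**Figure D2:**
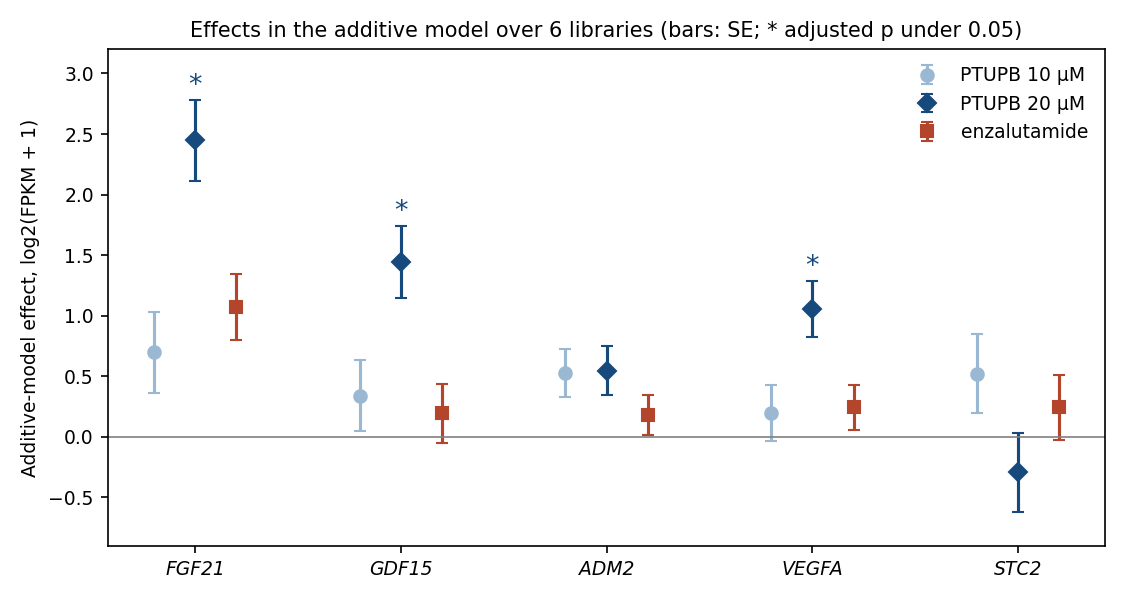
Additive-model effects (points) with their SE (bars) on the log2(FPKM + 1) scale for 10 µM PTUPB, 20 µM PTUPB and enzalutamide in the 5 tested genes, with asterisks at adjusted p under 0.05. The 3 asterisks are on the 20 µM effects of FGF21 (2.45), GDF15 (1.44) and VEGFA (1.05).

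Single pairs of libraries were also counted at a log2 difference of at least 1. With enzalutamide in both libraries, 10 µM PTUPB against 0 µM moved none of the 5 genes that far (2.24% of all genes higher, 1.57% lower). In that arm 20 µM against 0 µM moved FGF21, GDF15 and VEGFA up (13.5% higher, 15.8% lower), and 20 against 10 µM moved FGF21 up and STC2 down (13.7% higher, 14.7% lower). Without enzalutamide, 10 µM against control moved FGF21 up (1.62% higher, 0.772% lower), and 20 µM against control moved FGF21 and GDF15 up (9.47% higher, 12.7% lower). There 20 against 10 µM moved FGF21, GDF15 and VEGFA up (9.27% higher, 13.1% lower). Against control, the 10 µM combination moved FGF21 and STC2 up (2.71% higher, 2.58% lower), and the 20 µM combination FGF21, GDF15 and VEGFA (14% higher, 15% lower). The shares of all genes depend on the scaling. After TPM they were 19.5% higher and 12.4% lower for 20 against 10 µM without enzalutamide, and 1.75% and 2.64% for 10 µM against control. Against control they became 2.58% and 7.64% for the 10 µM combination, where STC2 was then at 0.82, and 10.7% and 26.6% for the 20 µM combination, where VEGFA was then at 0.82. Scaled by total fragments, the 20 µM combination had 9.60% higher and 19.8% lower against control, and 10.3% and 17.4% against the 10 µM combination. VEGFA was then at 0.87 in the 20 µM combination against control.

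The order of the 5 tested genes by level differed between libraries. GDF15 was the highest and VEGFA the second at 20 µM PTUPB in both arms and in control, and FGF21 moved past STC2 in the combination, at 27.0 against 15.9 FPKM. In the 10 µM libraries and with enzalutamide alone STC2 led, at 41.7, 28.6 and 30.8 FPKM. The summed level of the 6 genes was 197 and 178 FPKM at 20 µM with and without enzalutamide, 156 and 103 FPKM at 10 µM, and 103 and 89.0 FPKM at 0 µM. No spread between cultures is known, so neighbours such as ADM2 and GDF15 at 10 µM PTUPB alone (25.3 and 22.8 FPKM) cannot be ordered beyond counting error.

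Enzalutamide gave no call: limma called 0 of the 5 genes and 0% of all 12960, with 626 genes at an unadjusted p under 0.05, and limma-voom called 1 gene of all and none of these. FGF21 had the largest additive effect of the set, 1.07 (SE 0.27, unadjusted p = 0.0087, adjusted p = 0.92), and was higher with enzalutamide in 3 of 3 pairs. It was 4.98-fold control with enzalutamide alone (95% interval 3.74 to 6.73), 2.45-fold at 10 µM PTUPB (2.02 to 2.97) and 1.29-fold at 20 µM (1.15 to 1.44). The log2 differences of FGF21 were 1.75, 1.11 and 0.35 at the 3 doses, so they became smaller with each step of dose. FGF21 was the 1 gene of the set that was higher by at least 1 on the log2 scale at 0 µM (1.31% of all genes higher, 1.37% lower) and at 10 µM (1.41% higher, 2.01% lower). At 20 µM none of the 5 passed that margin (3.83% higher, 2.9% lower). After TPM the shares of all genes became 1.08% higher and 5.03% lower for enzalutamide alone, and 3.22% and 11.1% at 20 µM. Scaled by total fragments they were 0.910% and 1.83% for enzalutamide alone, and 2.49% and 4.60% at 20 µM.

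For the other 4 tested genes the enzalutamide difference did not keep 1 sign over the doses. GDF15 differed by -0.42, 0.72 and 0.28 at 0, 10 and 20 µM PTUPB, and VEGFA by -0.14, 0.59 and 0.28. STC2 differed by 0.72, 0.53 and -0.52, and ADM2 by 0.32, 0.33 and -0.12. After rescaling to TPM the median of all genes lay at -0.41 for enzalutamide alone and at -0.24 at 20 µM (0.00 and 0.04 as deposited), while ADM2 at 0 µM turned to -0.09, and GDF15 and VEGFA at 20 µM turned to -0.04 each. The additive enzalutamide effects of these 4 genes were between 0.18 and 0.24, and after TPM between -0.08 and -0.02.

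**Figure D3:**
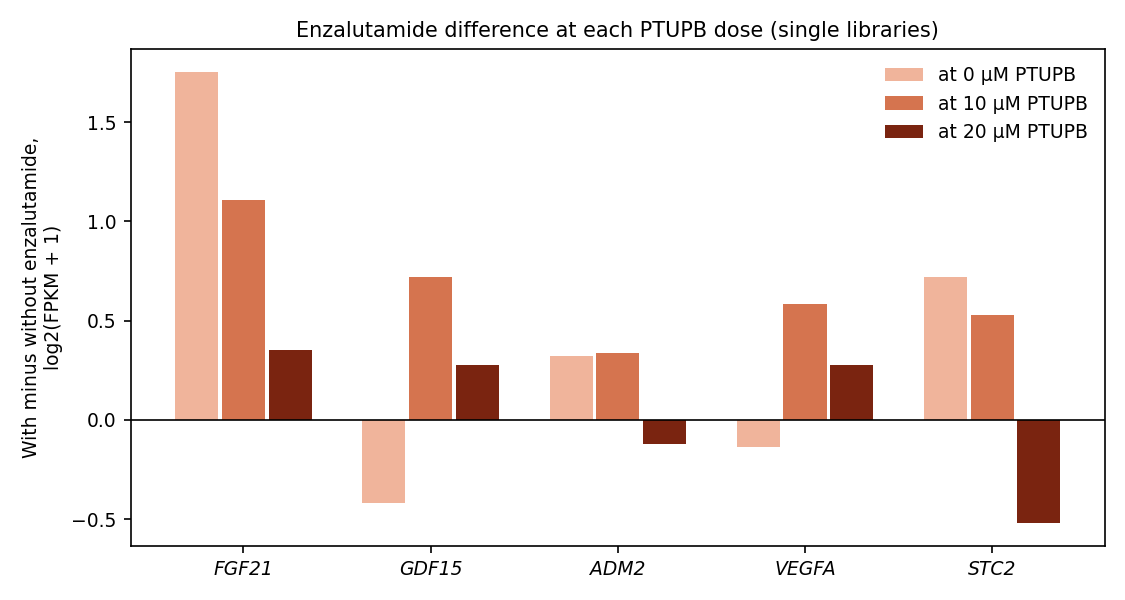
Difference with minus without enzalutamide on the log2(FPKM + 1) scale (bars, 1 pair of libraries each) at 0, 10 and 20 µM PTUPB for the 5 tested genes. FGF21 is above 0 at every dose with shrinking bars, GDF15 and VEGFA are below 0 at 0 µM only, and ADM2 and STC2 are below 0 at 20 µM only.

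The combination was set against the sum of the single-agent differences from control, on the log2(FPKM + 1) scale. At 20 µM the FGF21 combination stood 3.50 above control, 1.40 short of the 4.90 that enzalutamide and PTUPB alone add up to. STC2 stood at -0.19 where the sum was 1.04, which is 1.24 short. GDF15 stood at 1.37 where the sum was 0.67, and VEGFA at 1.12 where the sum was 0.71. ADM2 stood at 0.64 where the sum was 1.09. At 10 µM GDF15 and VEGFA exceeded their sums by 1.14 and 0.72, ADM2 by 0.01, and FGF21 and STC2 fell short by 0.65 and 0.19. In the model with a term for enzalutamide by linear PTUPB dose, limma called 0 of the 5 genes and 0% of all 12960, with 1219 genes at an unadjusted p under 0.05. After TPM the same model called 191 genes higher and 110 lower but 0 of the 5, with FGF21 at -1.67 (adjusted p = 0.093) and STC2 at -1.17 (adjusted p = 0.14). Of the set as deposited, FGF21 (-1.40 per 20 µM, SE 0.31, unadjusted p = 0.0051, adjusted p = 0.45) and STC2 (-1.24, SE 0.40, unadjusted p = 0.024, adjusted p = 0.49) had an unadjusted p under 0.05. These sums all use the same control library. The linear-dose estimate equals the 20 µM combination minus its sum, so it is the same quantity and not a further result. The 10 µM libraries enter its SE but not its value.

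The set was also compared with the genes most like each member, by the distance between the 5 log2 differences from control. Nearest to VEGFA were MIB2, a ubiquitin ligase gene (distance 0.18), and MAP3K10, a kinase gene (0.19). Nearest to GDF15 were the pseudogene AL353743.1 (0.31) and IL15RA, a cytokine receptor gene (0.32), both at 7.23 FPKM or less. Nearest to ADM2 were PIP4K2C (0.26) and TLCD5 (0.27), and nearest to STC2 were SHISA9 and the small nucleolar RNA gene SNORA33 (0.29 each). For FGF21 the nearest gene, PCSK1N, which encodes an inhibitor of a prohormone convertase, was at 0.94. PCSK1N stood at 141 and 128 FPKM at 20 µM PTUPB with and without enzalutamide, against 26.3 and 12.98 FPKM at 0 µM. Within the set the closest pair was GDF15 and VEGFA, at 0.46, and FGF21 lay at least 4.21 from each of the others.

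Relatives of the hormones and other stress-linked secreted factors moved in both directions at 20 µM PTUPB. Of 27 listed genes 9 were tested, and limma called 3 higher and 3 lower, where 15.9% of all genes were called higher and 18.2% lower. The median effect was 0.53 against 0.00 over all genes. CALCA, which encodes calcitonin and CGRP, of the same family as ADM2, rose by 2.61 (SE 0.22, adjusted p = 0.0029), to 7.74 and 6.44 FPKM at 20 µM with and without enzalutamide, against 0.616 and 0.0786 FPKM at 0 µM. CALCA passed the filter only through its 20 µM libraries, being at 1.53 FPKM or less in the others. MANF, a reticulum stress neurotrophic factor, rose by 1.35 (SE 0.34, adjusted p = 0.032). STC1, the paralog of STC2, was called lower: it had 0 fragments in both 20 µM libraries, against 4.62 and 5.93 FPKM at 0 µM with and without enzalutamide. GDF11, a TGF-beta relative of GDF15, fell by 2.50 (SE 0.17, adjusted p = 0.0023). With STC1 set to 3 fragments per library it stayed below the list median of 0.53, so that median could not change. The ADM2 paralog ADM stayed at or under 0.202 FPKM, and FGF19, the endocrine relative of FGF21, at or under 0.468.

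Most receptors of these hormones were low or undetected in the cells. GFRAL, the GDF15 receptor, and CALCRL, the receptor that binds ADM2 together with a RAMP protein, had no fragment in any library, which allows up to 3 fragments in each. KLB (beta-klotho) stayed at or under 0.501 FPKM, and the VEGF receptor genes KDR and FLT1 at or under 0.0387 and 0.00337 FPKM. Of 15 receptor and co-receptor genes 5 were tested, and at 20 µM PTUPB limma called 4 lower and 0 higher (18.2% and 15.9% of all genes). The median effect was -1.51. RAMP1, the accessory subunit of the calcitonin-like receptor, fell by 3.74 (SE 0.22, adjusted p = 0.0021), to 1.19 and 2.61 FPKM at 20 µM with and without enzalutamide, against 36.2 and 36.9 FPKM at 0 µM. NRP1, a VEGF co-receptor, fell by 2.25 (SE 0.25, adjusted p = 0.0045), and FGFR4, which encodes an FGF receptor, fell by 1.51 (SE 0.21, adjusted p = 0.0065). FGFR2 was at 0.97 (SE 0.36, adjusted p = 0.089) and did not pass.

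Among 13 genes for processing enzymes and partners, 7 were tested, and limma called 2 higher and 0 lower at 20 µM (median -0.20). Of all genes 15.9% were called higher and 18.2% lower. HMOX1, which encodes heme oxygenase 1, rose by 2.80 (SE 0.23, adjusted p = 0.0029). ERP44, which retains client proteins in the early secretory pathway, rose by 1.91 (SE 0.23, adjusted p = 0.0050). PAM, which amidates peptide hormones, was at -0.62 (SE 0.28, adjusted p = 0.14), and the convertase gene PCSK6 at -0.57 (SE 0.29, adjusted p = 0.17).

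Of 21 genes for stress transcription factors and eIF2 kinases 20 were tested, and at 20 µM limma called 12 higher and 2 lower (median 1.03). The shares of all genes were 15.9% higher and 18.2% lower. Values for ATF3 and DDIT3 were the largest, 5.48 and 4.29. NUPR1, a stress-induced chromatin protein gene, rose by 2.07 (SE 0.25, adjusted p = 0.0050), and CEBPG, a dimer partner of ATF4, by 1.85 (SE 0.18, adjusted p = 0.0034). The 2 lower genes were ATF5 (-1.42, SE 0.28, adjusted p = 0.016 by limma) and DELE1 (-1.33, SE 0.23, adjusted p = 0.011). ATF4 itself was at 0.39 (SE 0.22, adjusted p = 0.22) and did not pass. Among 20 integrated and mitochondrial stress response genes, all tested, 8 were called higher and 2 lower (median 0.70), against the same shares of all genes. PPP1R15A, a feedback regulator of eIF2 phosphorylation, was at 3.18, TRIB3, an inhibitor of ATF4, at 2.63 and SESN2, which restrains mTORC1, at 2.44. HSPE1, a mitochondrial chaperonin gene, fell by 1.92 (SE 0.20, adjusted p = 0.0039), and PSAT1 was also called lower (-1.07, SE 0.27, adjusted p = 0.030).

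The hypoxia list, whose factors VEGFA and ANGPTL4 also answer to, held more genes called lower than higher at 20 µM. Of 15 genes 14 were tested, and limma called 2 higher and 6 lower (median -0.43). Of all genes 15.9% were called higher and 18.2% lower. The list median was already -0.43 at 10 µM, with 0 genes called. For 20 against 10 µM limma called 4 higher and 1 lower (median -0.06), with 16.5% and 16.9% of all genes. P4HA2, a collagen prolyl hydroxylase gene, rose by 2.43 (SE 0.22, adjusted p = 0.0031), and EPAS1, which encodes HIF-2 alpha, by 1.82 (SE 0.28, adjusted p = 0.0085). EPAS1 stood at 4.40 and 2.78 FPKM at 20 µM with and without enzalutamide. In the other libraries EPAS1 was at 0.0788 to 0.378 FPKM, so it passed the filter only through the 20 µM libraries. LDHA fell by 2.30 (SE 0.31, adjusted p = 0.0064), with reads that may be shared with its pseudogenes. It stood at 114 FPKM in control, 59.0 with enzalutamide alone and 58.7 at 10 µM PTUPB alone. At 20 µM it stood at 16.8 and 15.0 FPKM with and without enzalutamide. CA9, a carbonic anhydrase gene, was called lower, with 0 fragments in both 20 µM libraries against 2.65 and 2.82 FPKM at 0 µM with and without enzalutamide. CA9 passed the filter only through its 0 µM libraries, with 0.527 FPKM or less in the others. With CA9 at 3 fragments per library it stayed below the list median of -0.43, so that median could not change.

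Of 13 PPAR-linked genes 8 were tested, and at 20 µM limma called 1 higher and 3 lower (median -0.35), with 15.9% and 18.2% of all genes. CPT1A, which imports fatty acids into mitochondria, fell by 2.22 (SE 0.22, adjusted p = 0.0035), and the carnitine carrier gene SLC25A20 fell by 1.13 (SE 0.16, adjusted p = 0.0073). PPARG rose by 1.33 (SE 0.25, adjusted p = 0.014). At 10 µM PTUPB, and for enzalutamide, limma called 0 genes in each of these 7 lists and 0% of all genes.

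**Figure D4:**
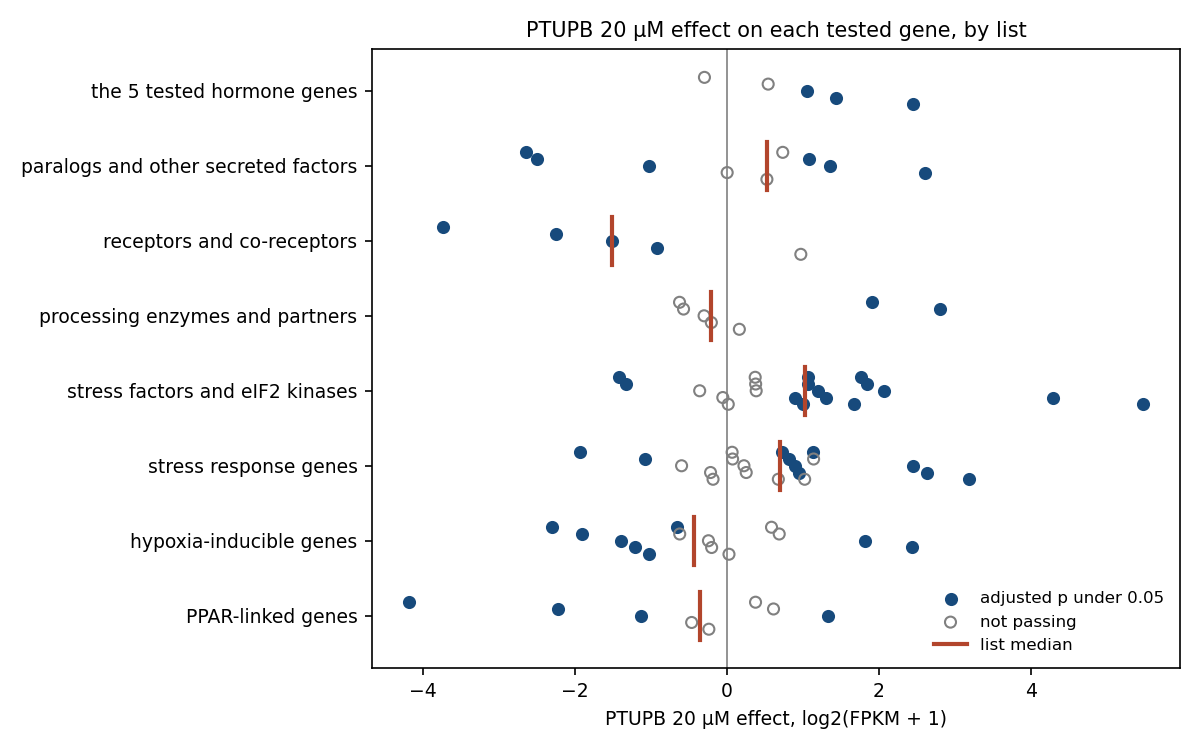
PTUPB 20 µM effect on the log2(FPKM + 1) scale (horizontal axis) for each tested gene, by list, with filled points at adjusted p under 0.05, open points otherwise and a red bar at the median of each of the 7 other lists. Of the hormone genes 3 are filled, all to the right of 0, while the 4 filled receptor genes are all to the left. Of all genes 15.9% were called higher and 18.2% lower.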

How the data were processed

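The authors deposited 1 table of FPKM values per Ensembl gene for the 6 libraries. Per the submitters' processing notes, HISAT and Cufflinks were used. Versions, genome build and strand setting are not given in the sources used here; reads of overlapping genes, paralogs and pseudogenes may be shared. All 58735 identifiers matched GENCODE 29 and 58207 a current symbol. Each value times the exon length of its gene was a whole multiple of 1 step per library (within 0.05, 100% of values), which gave fragments. The divisor in the deposited FPKM was not these totals: it was 0.910 times the total in the 20 µM combination and 1.09 times in control. Scaling by total fragments was an alternative. Depth sets the counting error of each value; fragments without molecular identifiers are not independent molecules.

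Genes with a mean of 1 FPKM or more were tested as log2(FPKM + 1) with limma (version 3.58.1, run under R version 4.3.3), using its trend option and Benjamini-Hochberg adjustment at 0.05. The additive model has 2 residual degrees of freedom, fewer with a library left out. Other steps used Python 3.11.15, pandas 2.3.3 and matplotlib 3.10.9. The fit was tested on simulated data. Alternatives changed the pseudocount, filter, scaling and model, or left out each library. The 6 genes and the lists were chosen with earlier results of these data known. Beside the 6 genes the text names the 4 genes of a list, or fewer, whose 20 µM effects were the most extreme, and the 2 nearest in pattern. ADM, FGF19, KLB, ATF4, ATF5, DELE1, PSAT1 and the receptor genes under 1 FPKM were chosen after their values were seen. The second gene nearest to FGF21, a small nucleolar RNA gene, has no current symbol and is not described. Another gene that this rule names is not reported here. Promoter sequences are from RefSeq (GRCh38.p14), matched by symbol.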

Additional observations from a re-analysis of the deposited data

Results flagged for a closer look

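Differences of opposite sign between the arms or doses, each beyond its counting interval, stood out for 4 genes. The limma test of the change with linear dose called none of these genes; a difference at a single dose was not tested. Values are log2(FPKM + 1).

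For enzalutamide at 0, 10 and 20 µM PTUPB, GDF15 differed by -0.42, 0.72 and 0.28, VEGFA by -0.14, 0.59 and 0.28, ADM2 by 0.32, 0.33 and -0.12, and STC2 by 0.72, 0.53 and -0.52. For 10 µM PTUPB with and without enzalutamide, GDF15 differed by 0.91 and -0.23, and VEGFA by 0.56 and -0.17. For 20 µM PTUPB with and without enzalutamide, STC2 differed by -0.91 and 0.33. For 20 against 10 µM with and without enzalutamide, ADM2 differed by -0.21 and 0.25. After TPM, ADM2 with enzalutamide alone turned to -0.09, and GDF15 and VEGFA with enzalutamide at 20 µM turned to -0.04 each.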

How the results depend on the processing

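The 3 calls at 20 µM PTUPB (FGF21, GDF15 and VEGFA) became 0 with no filter on low values (adjusted p 0.053, 0.086 and 0.079), 0 with PTUPB as a linear dose, and 1 (FGF21) with the interaction term. The 3 calls for 20 against 10 µM became 0 with no filter and 1 with the interaction term. With that term the PTUPB effects are those fitted without enzalutamide, not averages over both arms. The enzalutamide effect is then the one fitted at 0 µM PTUPB. The calls over all genes changed too, from 2064 higher and 2362 lower at 20 µM as reported. They were 544 and 657 of 31321 genes with no filter, 0 with the linear dose, and 895 and 1158 with the interaction term. For 20 against 10 µM they went from 2132 and 2193 to 425 and 443 with no filter, and 1913 and 2028 with the interaction term. The other scalings, the pseudocount of 0.1, the filter at 5 FPKM, limma-voom and the fit without a trend left 3 calls in both contrasts. With 1 library left out, 1 to 4 genes of the set were called at 20 µM and 0 to 2 for 20 against 10 µM. STC2 was the 1 gene of the set called lower, in both contrasts, without 20 µM PTUPB alone. Over all genes those fits called 115 to 2685 higher and 209 to 2718 lower at 20 µM. For 20 against 10 µM they called 351 to 2910 higher and 487 to 2681 lower. With the interaction term the 20 µM effect of STC2 was 0.33, which is the difference of 20 µM PTUPB alone from control. The additive 20 µM effect of STC2 ranged from -0.86 to 0.28 with 1 library left out. Over those fits the 10 µM effect ranged from -0.12 to 0.80 for GDF15 and from -0.09 to 0.48 for VEGFA. The ADM2 difference between doses ranged from -0.21 to 0.24 and was -0.05 scaled by total fragments. The enzalutamide effect of GDF15 ranged from -0.07 to 0.50, and the one fitted at 0 µM PTUPB with the interaction term was -0.16. After TPM the enzalutamide effects were -0.07 for GDF15, -0.08 for ADM2 and -0.02 for VEGFA and STC2; the median of all genes then lay at -0.23. Genes past log2 1 numbered 0 for 10 µM PTUPB against control by total fragments (1 as deposited), 1 for adding 10 µM PTUPB to enzalutamide after TPM or by total fragments (0), and 1 for the 10 µM combination against control after TPM (2). For the 20 µM combination against control VEGFA no longer passed log2 1 after TPM (0.82) or by total fragments (0.87). Apart from the different meaning of the effects with the interaction term, the cause of these changes was not tested. The interaction fits by TPM, pseudocount and filter were chosen after seeing the data. Depth limits ANGPTL4 (4 to 16 fragments) and FGF21 in control. No paired analysis was possible because each group has 1 library.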
